A study of Mus musculus with 48 samples.

Results

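The 9 genes described here encode claudins, other membrane proteins and cytoplasmic scaffolds of the tight junction: Cldn3, Cldn4, Cldn6, Cldn7, Ocln, F11r, Tjp1, Tjp3 and Cgn. They were picked by name out of 49671 genes in the count table, with their levels in these cells already known, and all 9 were found by symbol. Their RNA was measured in 48 single cells of the inner cell mass (ICM) of mouse blastocysts at E3.75, the stage at which the precursors of epiblast (pEPI) and primitive endoderm (pPrE) begin to part. By the methods, the embryos carried the reporter Pdgfra H2B-GFP on 1 allele and came from crosses with F1 (C57BL/6JxCBA/J) mice. In this reporter nuclear GFP follows the Pdgfra locus and marks the primitive endoderm lineage. The labels of the cells give the genotype as WT and do not name the reporter. No group was treated or lacked the reporter. The ICMs of 3 blastocysts were freed of trophectoderm by immunosurgery, which kills the outer cells, and dissociated before Smart-seq2, a full-length cDNA method that keeps neither strand nor molecular identifiers. The cells were read as 25 pEPI and 23 pPrE cells from the branches of the paper's dendrogram of the same cells. Since the branches were built on the expression of these cells, and the genes were selected on these results, each branch difference below is a description and carries no test.

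No label gives the embryo of a cell, so the 48 cells count as 1 sample. SDs are spreads between cells, and intervals cover counting error only. Each cell gave between 1718970 and 7342785 counts (median 4017082) on 9202 to 11547 genes. Levels are given as FPKM, which is counts per exon length and library size, the latter balanced between cells by the median of ratios. Of the markers looked up, 11 of 12 pEPI genes had the higher mean in pEPI (the exception was Bmp4). Of the pPrE genes, 15 of 16 had the higher mean in pPrE (the exception was Hnf4a), Dab2 only through well C6. Of 10880 genes with a mean of at least 1 FPKM, 5421 were lower and 5459 higher in pPrE. The branches were built on these same cells, so the markers are no separate support for their names.

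Tight junctions are belts of contact near the apical edge of epithelial cells. Claudins form the strands that close the space between neighbouring cells and set which ions pass. Occludin and the junctional adhesion molecules lie beside them in the membrane, and the zonula occludens scaffolds and cingulin tie the strands to actin and myosin. In the blastocyst these junctions are known as a feature of the trophectoderm, whose seal allows the cavity to fill, whereas ICM cells are enclosed and form no such seal.

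The stretches of 250 bases upstream of the annotated start of 4 members are shown because these genes had higher means in pEPI and lie in different regions of the genome, apart from Cldn3 and Cldn4. They are from RefSeq (GRCm38.p6), 5′ to 3′ on the strand of each gene, at chr5:134985964-134986213 on the plus strand for Cldn3, chr5:134946935-134947184 on the minus strand for Cldn4, chr11:69964529-69964778 on the plus strand for Cldn7 and chr3:94786483-94786732 on the minus strand for Cgn. Capitals mark motif matches on either strand.
Cldn3: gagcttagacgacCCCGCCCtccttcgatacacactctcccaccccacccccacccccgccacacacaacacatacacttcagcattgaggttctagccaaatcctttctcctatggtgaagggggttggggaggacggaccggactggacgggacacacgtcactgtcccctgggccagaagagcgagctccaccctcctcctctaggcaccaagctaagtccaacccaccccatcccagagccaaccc
Cldn4: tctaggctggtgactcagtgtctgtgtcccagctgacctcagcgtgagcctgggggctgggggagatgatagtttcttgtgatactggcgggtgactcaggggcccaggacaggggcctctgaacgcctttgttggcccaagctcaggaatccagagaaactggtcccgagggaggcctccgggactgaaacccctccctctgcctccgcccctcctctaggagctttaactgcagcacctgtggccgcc
Cldn7: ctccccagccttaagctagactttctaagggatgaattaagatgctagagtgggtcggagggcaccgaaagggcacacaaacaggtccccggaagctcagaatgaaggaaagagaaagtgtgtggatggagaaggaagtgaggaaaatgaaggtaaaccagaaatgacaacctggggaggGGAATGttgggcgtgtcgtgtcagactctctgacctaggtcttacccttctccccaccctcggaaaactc
Cgn: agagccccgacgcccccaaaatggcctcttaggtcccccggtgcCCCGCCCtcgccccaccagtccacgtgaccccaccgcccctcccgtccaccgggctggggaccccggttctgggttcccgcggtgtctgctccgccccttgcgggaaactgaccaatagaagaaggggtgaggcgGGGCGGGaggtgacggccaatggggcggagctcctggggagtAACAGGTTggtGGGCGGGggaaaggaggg
Letters were searched for 6 families of transcription factors on both strands. For the TFAP2 family, GCCNNNGGC was found in 1 of the 12 RefSeq promoters of the 9 members and in 13.7% of the 32851 promoters in the table. For the SP and KLF families, GGGCGGG was found in 6 of the 12 and in 23.4% of all promoters, and in the windows shown it stands in Cldn3 and in Cgn. For grainyhead-like factors, AACCNGTT was found in 1, that of Cgn, and in 1.79% of all. For TEAD factors, GGAATG was found in 1, that of Cldn7, and in 12.6% of all. For GATA factors, AGATAA was found in 1, that of Tjp3, and in 9.99% of all. For SOX factors, ATTGTT was found in 0 and in 9.42% of all. The Cldn4 window held none of them. A match is a run of letters and no evidence of binding.

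By fold, the widest branch differences among the members were those of claudins and Ocln. All 4 claudins had higher means in pEPI, by 3.93-fold for Cldn7, 14.2-fold for Cldn4, 22.1-fold for Cldn6 and at least 99.5-fold for Cldn3, which had no count in pPrE. Ocln was 10.1-fold and Cgn 2.78-fold higher in pEPI. F11r was 1.68-fold and Tjp3 1.33-fold higher in pEPI, and Tjp1 was 1.24-fold higher in pPrE. Thus 6 of the 9 members were at least 2-fold lower in pPrE and 0 were at least 2-fold higher. Of these 6, only Cldn4 and Cldn7 had a difference in means larger than either spread between cells. For Cldn3, Cldn6, Ocln and Cgn it was smaller than the spread in pEPI. Among 10880 genes with a mean of at least 1 FPKM, 9.03% were at least 2-fold lower in pPrE and 6.2% at least 2-fold higher. The median log2 ratio of pPrE over pEPI was -1.98 over the members and 0.002 over those genes. The members were selected on this contrast, so nothing is read from the excess.

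**Figure D1:**
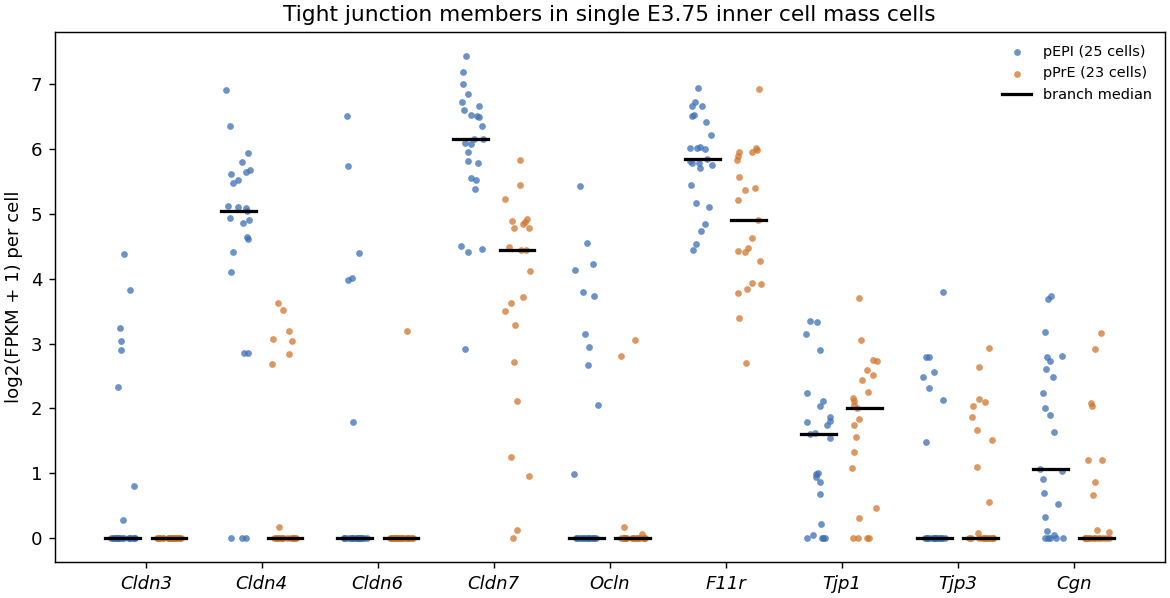
Level of each member in each of the 48 cells as log2(FPKM + 1), with 1 point per cell, 25 pEPI cells in blue and 23 pPrE cells in orange, and the branch median as a black bar. Cldn4 and Cldn7 carry the widest gaps between medians, the branches of Tjp1 and Tjp3 overlie each other, and Cldn3, Cldn6 and Ocln have medians of 0 in both branches.

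Cldn7 (chr11:69964779-69967885, plus strand, GRCm38) encodes a claudin that also binds EpCAM along the sides of epithelial cells. In pEPI its lowest, median and highest cells were at 6.59, 70.6 and 172 FPKM, and in pPrE at 0, 20.7 and 55.9 FPKM. The mean was 74.5 ± 40.3 FPKM (SD, n = 25 cells) in pEPI and 18.9 ± 14.8 FPKM (SD, n = 23 cells) in pPrE, a difference larger than either spread. The branches overlapped, but 16 of 25 pEPI cells lay above the highest pPrE cell and 6 of 23 pPrE cells below the lowest pEPI cell. In 90.6% of all pairs of a pEPI and a pPrE cell, the pEPI cell had the higher Cldn7. Counts of Cldn7 were present in all 25 pEPI cells and were missing from 1 of 23 pPrE cells. By presence of any count, its branch difference was therefore one of amount. At 10 CPM, 25 of 25 pEPI and 18 of 23 pPrE cells held Cldn7, and pPrE well C5 had 1 count only. At the midpoint between the branch medians, 45.7 FPKM, the cells on the far side were pEPI wells B2, B4, C1, C3, C4 and E5 and pPrE well F7. Well C1 was the lowest pEPI cell, and well F7 was the highest pPrE cell. The log2 ratio of summed CPM (counts scaled to library size only) was -1.78, with a counting interval of -1.83 to -1.73.

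Cldn4 (chr5:134945119-134946934, minus strand), a claudin of many tight epithelia and a receptor for a Clostridium enterotoxin, differed in presence as well as amount. In pEPI the lowest, median and highest cells were at 0, 32 and 120 FPKM, and in pPrE at 0, 0 and 11.3 FPKM. Counts were found in 22 of 25 pEPI cells (88%, exact binomial interval 68.8 to 97.5%) but in only 8 of 23 pPrE cells (34.8%, 16.4 to 57.3%). The means were 34.7 ± 27 FPKM (SD, n = 25 cells) and 2.44 ± 3.93 FPKM (SD, n = 23 cells), again a difference larger than either spread. Of the 22 pEPI cells with Cldn4, those below the highest pPrE cell were wells C2 and D6, at 6.26 and 6.23 FPKM. The 3 pEPI cells without a count were wells E4, E5 and E7, all of well letter E. The other pEPI cells of that letter, E2 and E3, had counts, and the part of the letter was not tested. The log2 ratio of summed CPM was -3.99, with a counting interval of -4.14 to -3.84.

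The 3 pEPI cells without Cldn4 were low in Nanog, a factor of the naive epiblast, but within the range of their branch. Their Nanog lay between 56.6 and 74.1 FPKM, and that of the other 22 pEPI cells between 50.7 and 724 FPKM with a median of 317 FPKM. Gata4, a factor of the primitive endoderm, was at 39.7 FPKM in E5 and 52.7 FPKM in E7, above the highest of the other 22 at 15.4 FPKM, and at 0 in E4. Their median Gata6 was 42.8 FPKM and median Sox17 23.9 FPKM, against 3.51 and 2.16 FPKM in the other 22. The log2 ratio of Nanog to Gata6 (FPKM + 1) was 0.29 in E5 and 0.77 in E7, the lowest of the pEPI branch. Cldn7 was not low in the 3 cells, at 40.8 to 70.6 FPKM, and their median F11r was 100 FPKM against 54.8 FPKM. In the other direction, the 8 pPrE cells with Cldn4 had a median Nanog of 45.1 FPKM and a median Gata4 of 34.2 FPKM, against 13.5 and 57.2 FPKM in the 15 pPrE cells without it. Nanog ranged from 1.07 to 308 FPKM among those 8 cells, so they were not uniform. Well F6 held Cldn4 by 1 count only, and well A8 had Cldn4 at 7.40 FPKM with Cldn7 at 0.

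Cldn3 (chr5:134986214-134987472, plus strand), a sealing claudin, is a near neighbour of Cldn4, with 39279 bases between the genes. Its counts came from 8 of 25 pEPI cells and from 0 of 23 pPrE cells, which allows a share of cells with a count of up to 13.04% by a floor of 3 cells and 14.8% by the exact binomial interval. All 8 cells with Cldn3 also had Cldn4 and Cldn7. In pEPI the lowest and median cells were at 0 and the highest, well C4, at 19.8 FPKM, followed by C8 at 13.1 FPKM. The mean was 2.40 ± 5.01 FPKM (SD, n = 25 cells), and C4 alone held 42.8% of the 332 counts. Only 3 of the 8 cells reached 10 CPM. The bound of 99.5-fold takes 3 counts over the pPrE branch as the floor. The annotated 3′ end of Cldn3 overlaps an antisense gene, and the library method keeps no strand.

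Cldn6 (chr17:23679249-23682446, plus strand), a claudin best known from embryonic epithelia, had counts in 6 pEPI cells out of 25 and in 1 pPrE cell out of 23. Its highest cells were C4 at 90.4 FPKM and D4 at 52.4 FPKM, and the single pPrE cell, A5, was at 8.12 FPKM. The mean was 7.81 ± 20.7 FPKM (SD, n = 25 cells) in pEPI and 0.35 ± 1.69 FPKM (SD, n = 23 cells) in pPrE. C4 held 62.0% of the pEPI counts. The log2 ratio of mean FPKM was -4.47 with all cells, -3.63 without C4 and -2.69 without C4 and D4. All 6 pEPI cells with Cldn6 had Cldn4, and 4 of them had Cldn3. Cldn9, on the opposite strand with 137 bases between the genes, was counted in 1 cell, and that cell had Cldn6.

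Claudins were also counted per cell. Every cell had at least 1 of the 4. In pPrE 15 cells had 1 and 8 had 2. In pEPI 3 cells had 1, 12 had 2, 6 had 3 and 4 had all 4. The 4 claudins together gave 119 ± 57.5 FPKM (SD, n = 25 cells) per pEPI cell and 21.7 ± 14.8 FPKM (SD, n = 23 cells) per pPrE cell. Cldn7 made up 62.4% of this sum in pEPI and 87.1% in pPrE, and Cldn4 made up 29.1% and 11.2%. The table has 35 claudin genes, those named as pseudogenes included, of which 18 had a count and 6 a mean of at least 1 FPKM. Outside the members these were Cldn12, a claudin without the usual scaffold-binding end, and Cldn34d. Cldn12 was at 3.64 ± 5.77 FPKM in pEPI (SD, n = 25 cells) and 2.93 ± 4.27 FPKM in pPrE (SD, n = 23 cells), a difference smaller than the spread.

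**Figure D2:**
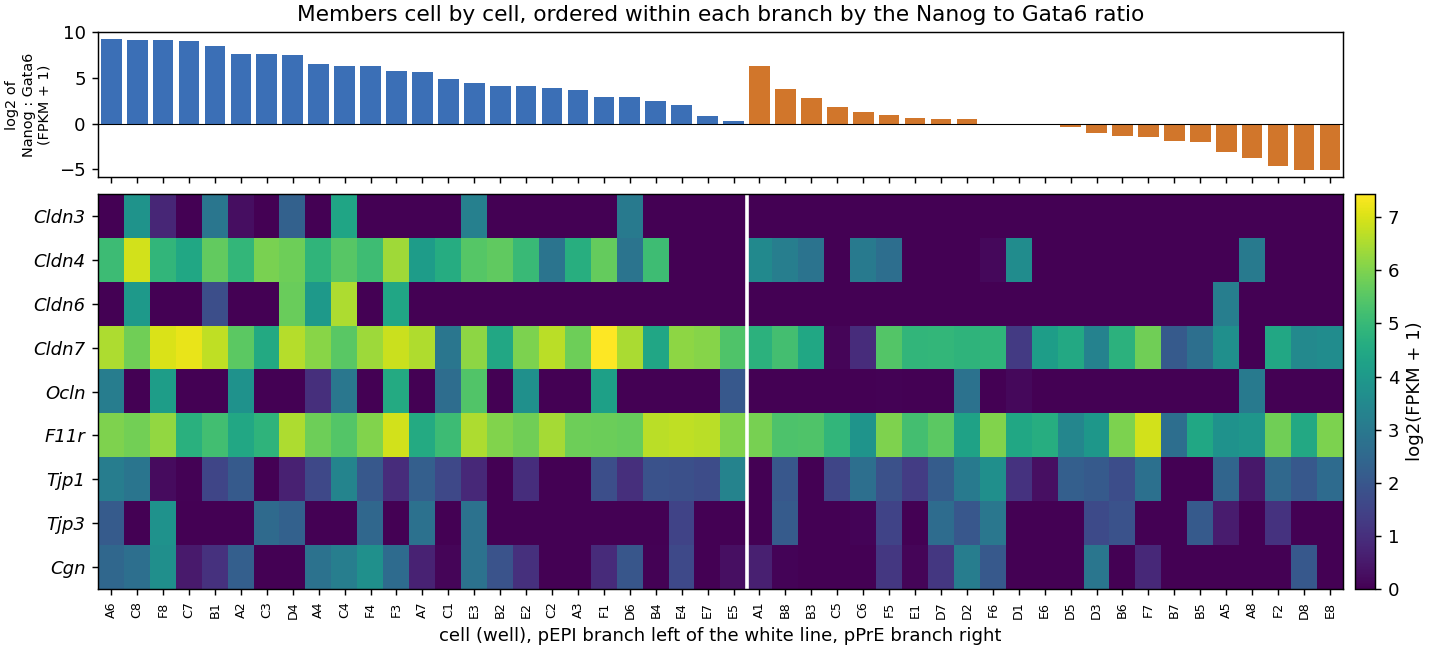
Heat map of the 9 members (rows) in the 48 cells (columns, named by well) as log2(FPKM + 1), with the pEPI branch left of the white line and the pPrE branch right of it, each ordered by the log2 ratio of Nanog to Gata6 (bars, FPKM + 1). Cldn4 runs through nearly all pEPI cells and stops at those with the lowest ratio, Cldn7 and F11r run through both branches, and Cldn3 and Cldn6 appear in single cells.

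Ocln (chr13:100496507-100552718, minus strand) encodes occludin, a membrane protein of the junction strands. Occludin RNA was found in 11 pEPI cells out of 25 and 4 pPrE cells out of 23. At 10 CPM these were 10 and 2, and well A8 held 50% of the pPrE counts. The median was 0 in both branches, and the highest cells were E3 at 42.02 FPKM in pEPI and A8 at 7.35 FPKM in pPrE. The means were 5.92 ± 10.1 FPKM (SD, n = 25 cells) and 0.59 ± 1.93 FPKM (SD, n = 23 cells). The difference in means was smaller than the spread in pEPI. The log2 ratio of -3.33 became -4.35 without the cells of well letter A, -2.74 without those of E and -2.61 without those of F.

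F11r (chr1:171437535-171464603, plus strand) encodes JAM-A, a junctional adhesion molecule of the immunoglobulin superfamily. It was counted in all 48 cells. The lowest, median and highest pEPI cells were at 20.9, 56.6 and 122 FPKM, and the pPrE cells at 5.50, 28.9 and 121 FPKM. The means were 62.2 ± 28 FPKM (SD, n = 25 cells) and 37.03 ± 26.9 FPKM (SD, n = 23 cells). The branches overlapped, and pPrE well F7 nearly equalled the highest pEPI cell, F3. That rests on 1 cell: F7 held 21.5% of the pPrE counts, and the next pPrE cell, F6, was at 64.0 FPKM. The pEPI cell was the higher in 76.3% of pairs, but the difference in means was smaller than either spread.

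Tjp1 and Tjp3 differed little. Tjp1 (chr7:65296165-65527781, minus strand) encodes ZO-1, which binds claudins, JAMs and actin. Most cells held it, 21 of 25 in pEPI and 19 of 23 in pPrE, or 14 and 16 at 10 CPM. Medians were 2.04 and 3.01 FPKM, and the highest cells were at 9.22 FPKM (C4) and 12.1 FPKM (F6). Its means were 2.53 ± 2.78 FPKM (SD, n = 25 cells) and 3.12 ± 2.88 FPKM (SD, n = 23 cells), and the log2 ratio dropped from 0.30 to 0.10 without F6. Tjp3 (chr10:81273207-81291581, minus strand) encodes ZO-3. It was counted in 8 pEPI and 11 pPrE cells, or 7 and 6 at 10 CPM. Its means were 1.73 ± 3.14 FPKM (SD, n = 25 cells) and 1.30 ± 1.92 FPKM (SD, n = 23 cells). Its log2 ratio of -0.41 became 0.04 without its highest cell, F8. Both differences were under 2-fold and smaller than the spread between cells, and both changed sign under some alternatives. Neither direction is read as a branch difference. Both genes overlap others in the annotation.

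Cgn (chr3:94760069-94786492, minus strand) encodes cingulin, which links ZO proteins to myosin and microtubules. Cingulin RNA was present in 20 pEPI cells out of 25 and 10 pPrE cells out of 23, with medians of 1.096 and 0 FPKM. At 10 CPM these were 12 and 4. The highest cells were F4 at 12.2 FPKM in pEPI and D2 at 7.93 FPKM in pPrE. The means were 3.02 ± 3.64 FPKM (SD, n = 25 cells) and 1.09 ± 2.16 FPKM (SD, n = 23 cells), so the branches overlapped widely. The log2 ratio of -1.48 became -3.14 without the cells of well letter D.

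Per length, F11r and Cldn7 stood highest and 6 members were below 5 FPKM. Over the 48 cells, mean levels were 50.1 FPKM for F11r, 47.9 for Cldn7, 19.3 for Cldn4, 4.24 for Cldn6, 3.36 for Ocln, 2.81 for Tjp1, 2.09 for Cgn, 1.53 for Tjp3 and 1.25 for Cldn3. No neighbours in this order differed by more than the larger of their SDs. Cell by cell, F11r exceeded Cldn7 in 31 cells and was below it in 17, and Cldn7 exceeded Cldn4 in 40 cells. Cldn7 ranked first in pEPI and F11r in pPrE. Tjp1 had rank 7 in pEPI and rank 3 in pPrE.

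The cells were also split by the presence of Y-linked RNA, as a description. Cells with at least 100 counts over 4 Y-linked genes (17 pEPI and 12 pPrE) and cells with fewer (8 pEPI and 11 pPrE) should not share an embryo. Cldn7 had nearly the same ratio in both sets, with a log2 ratio of -2.02 in cells with Y-linked counts and -2.01 in cells without. Cldn4 had -3.45 and -4.40, Ocln -3.58 and -2.37, and F11r -0.88 and -0.50. Cldn3 was at 0 in pPrE in both sets. Cldn6 had -1.71 in cells with Y-linked counts, and was at least 579-fold lower in pPrE in cells without, where pPrE had no count. Cgn had -5.05 and -1.23: in pPrE it was at 0.061 ± 0.17 FPKM (SD, n = 12 cells) with Y-linked counts and at 2.20 ± 2.76 FPKM (SD, n = 11 cells) without. Tjp1 changed sign, from -0.47 to 0.83. In each set Cldn3, Cldn4, Cldn6, Cldn7, Ocln and Cgn were at least 2-fold lower in pPrE. So were 10.9% of all genes in cells with Y-linked counts and 13.2% in cells without. The members were selected on this contrast over these same cells, so nothing is read from its return in each set.

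**Figure D3:**
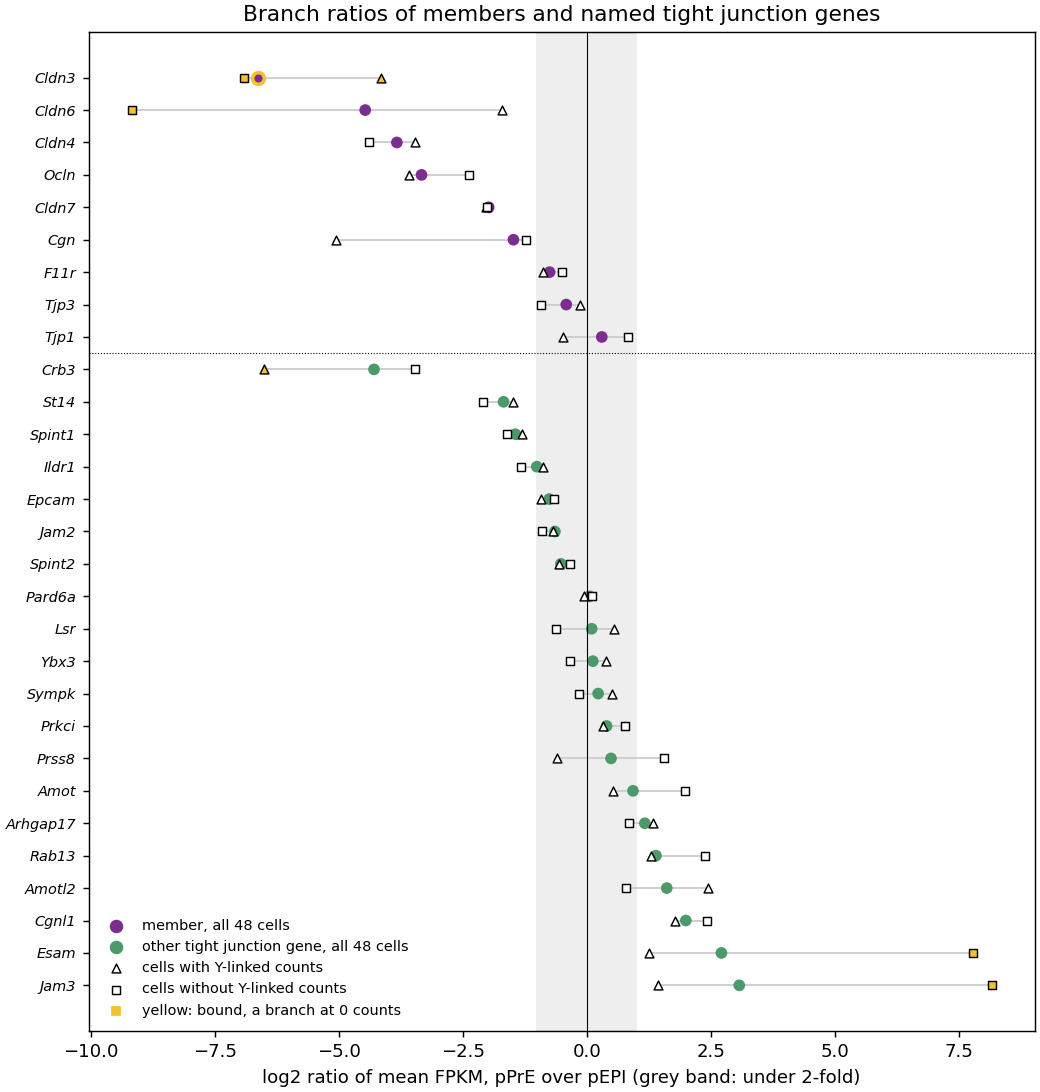
Log2 ratio of mean FPKM, pPrE over pEPI, for the 9 members (above the dotted line) and for the other tight junction genes named in the text, over all 48 cells (filled circles), the 29 cells with Y-linked counts (triangles) and the 19 without (squares). Yellow marks a bound set by 3 counts, where a branch had no count. Over all 48 cells the members, which were selected on this contrast, lie to the left or in the grey band of less than 2-fold. Of the other genes, Jam3, Esam, Cgnl1, Amotl2, Rab13 and Arhgap17 lie to the right. Crb3, St14, Spint1 and Ildr1 lie to the left, and the rest lie in the band. In cells without Y-linked counts Amotl2 is inside the band, at 0.80.

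Of 73 further tight junction genes, taken by name from the known parts of the junction, with earlier results of these cells known, 52 had a count and 31 a mean of at least 1 FPKM. Of these 31, 4 were at least 2-fold lower in pPrE, 6 at least 2-fold higher and 21 neither, against 9.03% and 6.2% of all genes. Their median log2 ratio was 0.22.

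Relatives of the members had differing ratios. Jam2, a second junctional adhesion molecule, was close to F11r in level and ratio, at 63.7 ± 31.5 FPKM (SD, n = 25 cells) in pEPI and 40.9 ± 28.5 FPKM (SD, n = 23 cells) in pPrE. Jam3 was at 0.63 ± 1.99 FPKM (SD, n = 25 cells) in pEPI and 5.34 ± 7.30 FPKM (SD, n = 23 cells) in pPrE, 8.44-fold higher. It was counted in 4 pEPI and 14 pPrE cells. Esam, another adhesion molecule of this family, was 6.58-fold higher in pPrE and was likewise counted in 4 pEPI and 14 pPrE cells. Cgnl1, the paralog of cingulin, was 3.999-fold higher in pPrE, at 0.44 ± 0.85 FPKM (SD, n = 25 cells) and 1.75 ± 2.48 FPKM (SD, n = 23 cells). Its direction was opposite to that of Cgn, but for both genes the difference was smaller than the larger spread.

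The partners that control Cldn7 and EpCAM mostly had higher means in pEPI, as did 5421 of the 10880 genes with a mean of at least 1 FPKM. Epcam, which binds and stabilizes claudin-7, was the highest gene of the list, at 251 ± 114 FPKM (SD, n = 25 cells) in pEPI and 148 ± 55.4 FPKM (SD, n = 23 cells) in pPrE. St14, the protease matriptase that cleaves EpCAM, was 3.20-fold higher in pEPI and had counts in all 25 pEPI cells against 13 of 23 in pPrE. Its inhibitor Spint1 was 2.71-fold higher in pEPI, at 128 ± 53.6 FPKM (SD, n = 25 cells) against 47.3 ± 24.7 FPKM (SD, n = 23 cells), a difference larger than either spread. The second inhibitor Spint2 had a log2 ratio of -0.52, and the protease Prss8 one of 0.49. For Epcam, St14, Spint2 and Prss8 the difference was smaller than the larger spread.

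Genes of the corners between 3 cells and of polarity gave mixed ratios. Ildr1, an angulin of tricellular junctions, lay just inside the 2-fold limit at 2.01-fold higher in pEPI, while its relative Lsr had a log2 ratio of 0.10. Crb3, an apical polarity protein, was 19.5-fold higher in pEPI, with counts in 11 pEPI and 2 pPrE cells. Well C6 held 97.6% of its pPrE counts, and the gene overlaps others in the annotation. Among the genes higher in pPrE, Amotl2, an angiomotin, was 3.06-fold higher, Rab13, a small GTPase of junction traffic, 2.64-fold, and Arhgap17, a GTPase-activating protein that binds angiomotin, 2.25-fold. Amot had a log2 ratio of 0.93, Prkci 0.40, Sympk 0.23, Ybx3 0.12 and Pard6a 0.06. Prkcz, at 6.36 and 3.19 FPKM, lay just outside the 2-fold limit.

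Likeness between members was described by Spearman's rho of log2(FPKM + 1) over cells that share embryos, with no test. Over all 48 cells the closest pairs were Cldn7 with F11r (rho 0.55), Cldn4 with Cldn7 (0.49), Cldn3 with Cldn6 (0.48), Cldn7 with Cgn (0.48) and Cldn3 with Cldn4 (0.47). Within branches the picture changed. Cldn4 with Cldn7 had a rho of 0.04 within pEPI and -0.06 within pPrE, so the pair went together between branches and not cell by cell. Cldn7 with F11r had 0.09 within pEPI and 0.63 within pPrE, and Cldn7 with Cgn had 0.17 and 0.54. Total counts had a rho of 0.36 with Cldn7 and 0.49 with F11r within pPrE, and their part in these pairs was not tested. Within pEPI the closest pairs were Cldn4 with Cldn6 (0.52), Cldn3 with Cldn6 (0.47) and Ocln with Cgn (0.47).

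**Figure D4:**
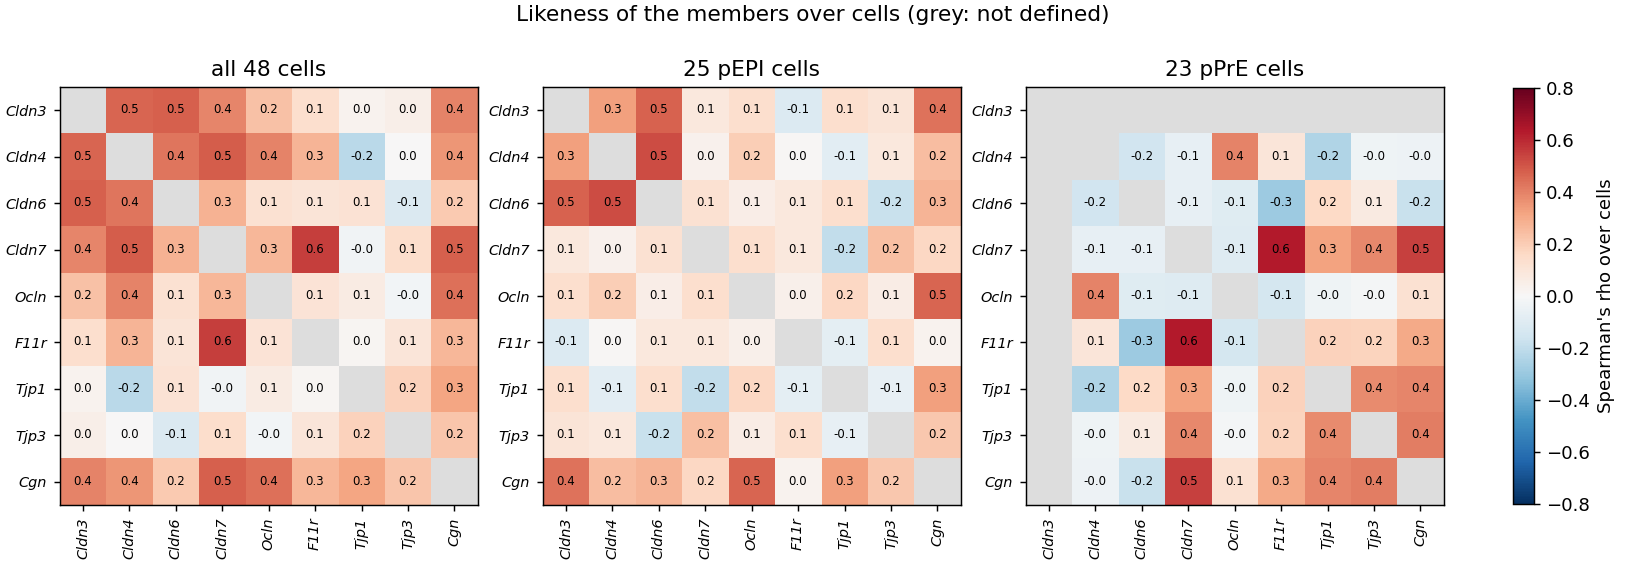
Spearman's rho between members over all 48 cells (left), the 25 pEPI cells (middle) and the 23 pPrE cells (right), with red for positive and blue for negative values. The Cldn4 and Cldn7 pair is near 0 within each branch, the Cldn7 and F11r pair is at 0.63 within pPrE and 0.09 within pEPI, and Cldn3 has no value in pPrE, where it was not counted.

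Among 6059 genes with a mean of at least 5 FPKM and counts in at least 12 cells, those most like Cldn4 over the 48 cells were Nanog (rho 0.81), Klf2 (0.81) and Fgf4 (0.76), all known from the early epiblast. Cldn4 and these genes all had higher means in pEPI, and the part of that branch difference in rho was not tested. Within pEPI rho was 0.57, 0.57 and 0.62, and within pPrE 0.50, 0.38 and 0.63. The genes were picked as the closest over these same cells, so the values within branches are no separate support. Cldn4 had a rho of -0.78 with Gata4 over all cells, -0.34 within pEPI and -0.52 within pPrE. The genes most like Cldn7 were the pseudogene Gm6223 (0.80), Tmem41b (0.75) and Hdac1 (0.74), all with higher means in pEPI. Their rho with Cldn7 was 0.44, 0.33 and 0.31 within pEPI and 0.67, 0.53 and 0.48 within pPrE. Cldn7 had a rho of 0.69 with Nanog over all cells and 0.35 and 0.33 within the branches. The genes most like F11r were the pseudogene Gm14292 (0.61), Psap (0.58) and Calcoco2 (0.57), also all with higher means in pEPI. Their rho with F11r was 0.45, 0.32 and 0.33 within pEPI and 0.57, 0.40 and 0.44 within pPrE.

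**Figure D5:**
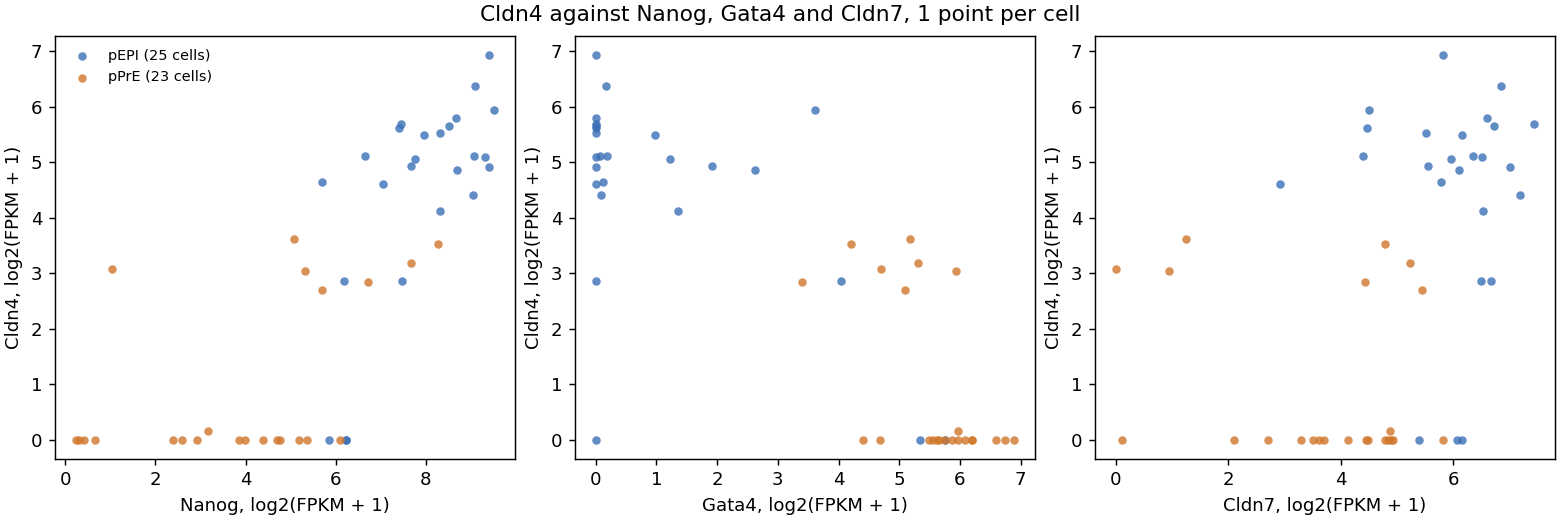
Cldn4 against Nanog (left), Gata4 (middle) and Cldn7 (right), all as log2(FPKM + 1), with 1 point per cell, pEPI in blue and pPrE in orange. Cells high in Cldn4 are high in Nanog and mostly at or near 0 in Gata4, a middle band of pPrE cells holds low Cldn4 with Gata4, and Cldn4 shows no slope with Cldn7 within either branch.

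Since tight junctions belong to the trophectoderm, its markers were looked up in the same cells. Of 20 trophectoderm markers, 18 had a count, and 5 to 11 were counted per cell. Their summed level ran from 63.8 to 673 FPKM with a median of 178 FPKM in pEPI, and from 46.5 to 475 FPKM with a median of 125 FPKM in pPrE. Ly6a alone made up 101 FPKM of the mean sum of 215 FPKM in pEPI and 82.5 FPKM of 163 FPKM in pPrE. The sum of the 5 defining markers had medians of 31.02 FPKM in pEPI and 32.3 FPKM in pPrE. Of these 5, Cdx2 was at 0 in 45 of 48 cells, Gata3 in 39, Krt18 in 35 and Eomes in 26, whereas Krt8 was at 0 in 2. Cdx2 was counted in 2 pEPI cells, F3 at 7.04 FPKM and A6 at 3.18 FPKM (58 counts together), and in 1 pPrE cell, C5 (2 counts). Cldn4 was at 81.4 FPKM in F3, 33.1 FPKM in A6 and 0 in C5. Gata3 was counted in 2 pEPI and 7 pPrE cells, with 66 and 372 counts. Tfap2c, which pluripotent cells also express, was 24.5 FPKM in pEPI and 1.70 FPKM in pPrE. Its rho with Cldn4 was 0.72 over all cells, 0.40 within pEPI and 0.19 within pPrE. The mean was also higher in pEPI for Cdx2, Gata2, Krt7, Krt8, Krt18, Krt19, Tfap2a, Hand1, Lgals3, Ly6a and Cdh3. Higher in pPrE were Eomes, Elf5, Tead4, Id2, Fgfr2 (1.01 FPKM in pEPI and 9.85 FPKM in pPrE) and Gata3 (0.17 and 1.02 FPKM). The summed marker level had a rho of 0.33 with Cldn4 over all cells, 0.44 within pEPI and 0.01 within pPrE, and of 0.23 with Cldn7. The part of these markers in the claudin levels was not tested.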

How the data were processed

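Raw read counts per gene were made by the authors and deposited for 48 single cells. According to the methods and the submitters' processing notes, reads were aligned to mm10 with STAR and counted with HTSeq on Ensembl genes, and the authors dropped libraries with few mapped reads, uneven gene-body coverage or an outlying position in PCA. The strand setting is not given in the sources used here. FPKM was computed from these counts with union exon lengths of GENCODE M21 (GRCm38) and library sizes by the median of ratios. Of 21943 genes with a count, 85 had no length. Cells were grouped by the branches of the paper's dendrogram, read by eye. The members and the lists were chosen with earlier results of these data known. With cells of 1 sample no test was made. Intervals are exact (95%, Poisson, Clopper-Pearson or conditional binomial), and reads are not independent molecules. Genes at 0 in a branch were set against 3 counts over that branch. No 2 cells held identical counts. The other tight junction genes named were those with a mean of at least 5 FPKM, or at least 1 FPKM and 2-fold apart, and for likeness the 3 closest genes of each member, except that some genes meeting these rules are not reported here. Prkcz, Cldn12, Cldn34d and Cldn9 and the marker genes were named after their values were seen. Ratios were tested on simulated data. Python 3.11.15, numpy 2.4.6, pandas 2.3.3 and scipy 1.17.1 were used, with edgeR for TMM library sizes.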

Additional observations from a re-analysis of the deposited data

How the results depend on the processing

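The count of 6 members at least 2-fold lower in pPrE was between 5 and 7 under 22 of 24 alternatives and was 3 by the difference of mean log2(FPKM + 1) (Cldn4, Cldn7 and Ocln) and 3 by the ratio of median FPKM + 1 (Cldn4, Cldn7 and Cgn), both of which give less weight to genes seen in few cells. The share of all genes lower in pPrE was 9.03% in the report, 3.8% by the first and 5.81% by the second, and ran from 3.8 to 20.4% over the 24. No alternative put a member at least 2-fold higher in pPrE. For the other tight junction genes the 4 lower in pPrE became 13 with no minimum FPKM (20.4% of all genes), 8 at 1.5-fold (16.4%) and 2 at 3-fold (4.70%). The 6 higher in pPrE (6.2% of all genes) became 11 with a pseudocount of 0.1 (8.82%), 11 at 1.5-fold (12.3%), 10 in cells without Y-linked counts (12.48%) and 1 with a minimum of 5 FPKM (3.06%). Cldn4 and Cldn7 stayed past 2-fold under all 21 alternatives, from -5.37 to -2.78 and from -2.67 to -1.61 on the log2 scale. F11r passed 2-fold without the cells of well letter F (-1.04) alone, and Tjp1 and Tjp3 changed sign under 2 alternatives each. The rho of Cldn4 with Cldn7 was -0.0627 within pPrE. Grouping by the sign of PC1 over other genes placed 47 of 48 cells as the dendrogram did. Ward clusters gave 16 pEPI and 32 pPrE cells and put 9 pEPI-branch cells with pPrE. By Ward clusters 6 members were still at least 2-fold lower in pPrE, with Cldn4 at -2.78 (-3.83 by the dendrogram), Cldn6 at -5.59 (-4.47), Cgn at -2.18 (-1.48) and Cldn3 at least 215-fold lower. Without the cells of well letter A Cldn6 was at least 461-fold lower in pPrE, and without those of C Cldn3 was at least 52.2-fold lower. The alternative without wells C4 and D4 and those without the highest cell of a member were chosen after seeing the data. No paired analysis was possible because the 48 cells form 1 group and no result comes from a test. Cells of 3 embryos that cannot be told apart limit every comparison.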

Other observations

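Genes most like the less abundant members over the 48 cells, by the same ranking of 6060 genes, were Clec4a1 (rho 0.57), Hdac1 (0.56) and Chpf (0.56) for Cldn3, Trh (0.55), Slc29a1 (0.54) and Pdpk1 (0.53) for Cldn6, Snx15 (0.57), C1qbp (0.55) and Kif16b (0.52) for Ocln, and Plpp1 (0.63), Ckb (0.62) and Pramel4 (0.61) for Cgn. For Tjp1 they were Sys1 (0.51), 1700019A02Rik (0.51) and Yars (0.51), and for Tjp3 the pseudogene 2410024N13Rik (0.56) and Lrrc8a (0.51). The 4 lists of claudins shared 1 gene, Hdac1, which was among the 3 closest to Cldn3 and to Cldn7. These values come from many zeros and are given without a reading.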
